A study of Mus musculus with 2 samples.

Results

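The receptors described here are the haematopoietic growth-factor receptors by which a bone marrow cell senses GM-CSF, IL-3, IL-5, EPO, M-CSF, G-CSF, stem cell factor and FLT3 ligand. They were taken by gene name, as the 10 genes Csf2ra, Csf2rb, Csf2rb2, Il3ra, Il5ra, Epor, Csf1r, Csf3r, Kit and Flt3, out of 34745 genes listed, and all 10 were found. Of these 10 receptor genes, 8 reached 1 FPKM (fragments per kilobase of gene length, scaled to library size) in one or both libraries, and Epor and Il5ra stayed below 1 FPKM in both.

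The study examined whether CHBP (cyclic helix B peptide), a peptide derived from EPO, alters monocytic myeloid-derived suppressor cells (M-MDSCs). RNA was sequenced from 2 libraries. The library of CHBP- M-MDSCs came from mouse bone marrow cells cultured for 7 days with GM-CSF alone, and that of CHBP+ M-MDSCs from such cells cultured for 7 days with GM-CSF and CHBP, so both groups were exposed to GM-CSF. CD11b+Ly6G-Ly6Chigh cells were then sorted by flow cytometry. Per the methods the mice were C57BL/6, 6 to 8 weeks old, and GM-CSF was given at 50 ng/ml. The strain label of the CHBP- library reads C57BL/6 and that of the CHBP+ library C57BL/7. The labels give no CHBP dose, and the number of mice behind a library is not given in the sources used here. With 1 library per condition, the effect of CHBP and any other difference between the 2 cultures cannot be told apart, and no test across replicates exists.

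GM-CSF, IL-3 and IL-5 are each recognised by their own α chain, and signalling passes through a shared β chain that carries the kinase JAK2. The mouse has a pair of β chain genes, Csf2rb for the common β chain and Csf2rb2 for a β chain that works with the IL-3 receptor α chain. EPO signals through a pair of EPOR chains that also use JAK2, and the tissue-protective action of EPO and its helix B peptides has been attributed to a receptor made of EPOR and the common β chain. CSF1R, KIT and FLT3 are receptor tyrosine kinases of macrophages, of progenitors and mast cells, and of early progenitors and dendritic cells. CSF3R is the G-CSF receptor of the neutrophil lineage.

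The β chain genes are near-identical copies, which bears on how their reads can be told apart. Their coding sequences of 2691 bases in Csf2rb and 2637 bases in Csf2rb2 aligned over 2631 bases without a gap, and 2505 of these, or 95.2%, were identical. Of the 75-base windows of the longest Csf2rb transcript, 509 of 4690 (10.9%) also occurred in Csf2rb2, and of those of Csf2rb2, 490 of 4538 (10.8%) occurred in Csf2rb. The longest run shared without a difference covers coding bases 2083 to 2324 of both genes, in which a read of 75 bases has no base to choose by. It is shown because every read inside it could be counted for either gene:
shared run: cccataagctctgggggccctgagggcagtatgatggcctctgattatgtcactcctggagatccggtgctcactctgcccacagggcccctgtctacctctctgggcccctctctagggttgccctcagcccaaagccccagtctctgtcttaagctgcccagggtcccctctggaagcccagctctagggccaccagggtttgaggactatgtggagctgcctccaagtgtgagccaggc

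The stretch of one read length in which the β chain genes differ most lies at coding bases 316 to 390 of Csf2rb and 319 to 393 of Csf2rb2. It shows the other extreme, with the 14 differing bases in capitals:
Csf2rb: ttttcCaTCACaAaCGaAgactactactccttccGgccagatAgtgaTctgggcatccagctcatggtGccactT
Csf2rb2: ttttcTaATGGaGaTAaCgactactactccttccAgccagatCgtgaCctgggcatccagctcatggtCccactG

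No 75-base window of Csf2ra, Il3ra, Il5ra, Epor, Kit or Flt3 was shared with another protein-coding transcript. In Csf1r 797 of 4627 windows (17.2%) were shared with Hmgxb3, a gene that overlaps it and held 756 and 835 reads, and in Csf3r 12 of 3734 windows (0.321%) were shared with other genes. How the counting treated strand and reads with several matches is not given in the sources used here, so the levels of Csf2rb, Csf2rb2 and Csf1r are uncertain to that extent.

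Epor is transcribed in erythroid cells under GATA1 and Sp1-family factors, and its upstream sequence is shown because it was nearly unread in these myeloid cells. The 250 bases upstream of its RefSeq start, chr9:21963577-21963826 on the minus strand of GRCm38.p6, hold 4 matches, in capitals:
Epor upstream: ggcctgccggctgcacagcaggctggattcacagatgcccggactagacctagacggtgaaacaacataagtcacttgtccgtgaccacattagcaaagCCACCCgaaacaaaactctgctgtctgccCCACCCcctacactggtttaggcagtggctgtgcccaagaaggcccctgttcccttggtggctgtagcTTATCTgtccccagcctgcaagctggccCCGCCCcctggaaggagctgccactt

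Motifs were searched on both strands and none overlapped another. The GATA motif AGATAA, here as TTATCT, starts at base 197 and is found in 9.99% of all 32851 upstream stretches of this length. The GC box GGGCGG, here as CCGCCC, starts at base 225 and is found in 32.7% of them, and the CACCC box CCACCC starts at bases 100 and 129 and is found in 28.1%. Among the 8 receptor genes whose upstream stretch was read, the GATA motif occurred in Epor and Il5ra. The GC box occurred in Csf2ra, Il3ra, Epor and Kit, and the CACCC box in Csf2ra, Csf2rb2, Epor, Csf3r and Kit. The PU.1 core GAGGAA, held by 23.3% of all stretches, occurred in Csf2ra, Csf2rb2, Csf3r and Kit. Csf2rb, without an upstream stretch in the source used, and Csf1r were not read. These matches are letters in a window and were not linked to binding.

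The libraries held 16484504 counted reads for CHBP- and 16280466 for CHBP+ M-MDSCs, and reads on 16828 and 17010 genes. At that depth 3 reads, the most that a count of 0 allows, stand for 0.182 and 0.184 CPM (read counts scaled to library size). Intervals given below are exact (Clopper-Pearson) 95% intervals of the counts. They cover counting error only, since reads without molecular identifiers are not independent molecules, and say nothing of the spread between cultures. Log2 ratios without an interval are of FPKM + 1, CHBP+ over CHBP-, a scale that understates differences of low genes. Genes that reached 1 FPKM in one or both libraries were kept, and over these 10948 genes the median log2 ratio was -0.03. Log2 ratios moved with gene length (Spearman's rho 0.48 across these genes, which share both libraries and are not independent), with a median of -0.30 over the 1094 shortest genes and 0.23 over the 1094 longest. They moved more closely with the length of the longest transcript (rho 0.69 over the 10211 genes kept that had a GENCODE M1 transcript). From the marker and signalling lists below only the gene length trend was removed, so part of the transcript length trend can remain in them.

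The 10 receptor genes spanned more than 3 orders of magnitude in FPKM, a level per gene length, and stood in the same order in both libraries. From high to low this order was Csf2rb, Csf2rb2, Csf1r, Csf2ra, Csf3r, Il3ra, Kit, Flt3, Epor and Il5ra. Neighbours in this order had separate counting intervals in both libraries, except that those of Epor and Il5ra overlapped in CHBP+ M-MDSCs. This order rests on the deposited gene length, which for some genes exceeds that of the longest transcript. It did for Kit (12958 against 5241 bases), Flt3 (6176 against 3951), Il5ra (6028 against 3295), Csf1r and Csf3r. The order and the FPKM ratios between genes depend on the length used, and levels per transcript length were not compared. Together the 10 genes held 96268 reads in CHBP- and 114675 reads in CHBP+ M-MDSCs, which is 0.584% and 0.704% of all counted reads. The β chains made up 77.5% of the summed FPKM of the 10 genes in CHBP- and 81.5% in CHBP+ M-MDSCs.

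**Figure D1:**
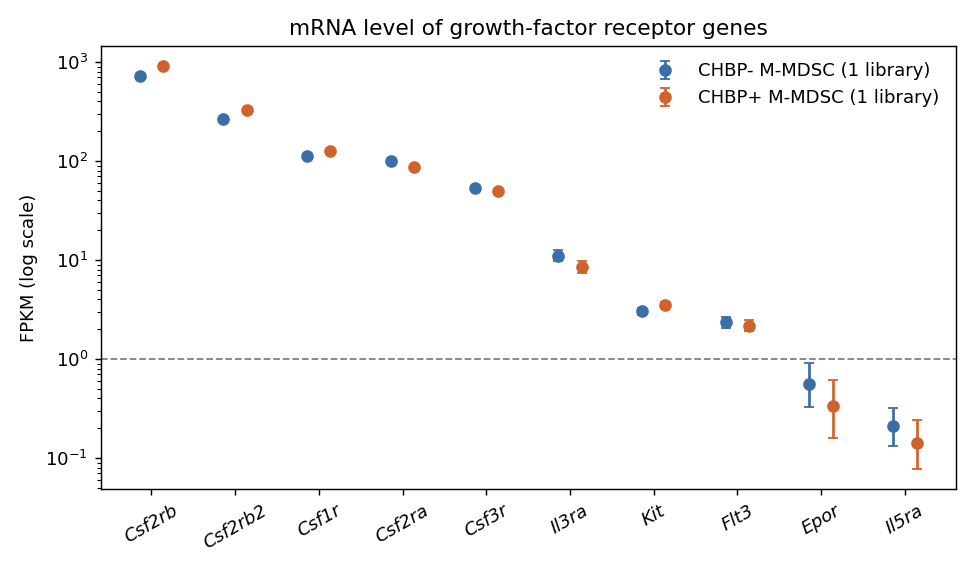
mRNA level of each receptor gene in FPKM (log axis) in the CHBP- library (blue) and the CHBP+ library (orange), with exact 95% counting intervals of the reads and a dashed line at 1 FPKM. Csf2rb led in both libraries at 714.7 and 902.9 FPKM, and Epor and Il5ra lay below the dashed line in both.

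Of the 8 receptor genes that reached 1 FPKM, 0 were at least 1.5-fold higher and 0 at least 1.5-fold lower in CHBP+ M-MDSCs on the scale of FPKM + 1. Among all 10948 genes kept by the same rule, 374 (3.42%) were at least 1.5-fold higher and 316 (2.89%) at least 1.5-fold lower. By counting error alone, 4 receptor genes lay above equality (Csf2rb, Csf2rb2, Csf1r and Kit) and 3 below it (Csf2ra, Il3ra and Csf3r), where 27.9% of all genes kept lay above and 31.0% below. At this depth many genes of any kind differ by more than counting error, so these counts single out nothing about the receptors.

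**Figure D2:**
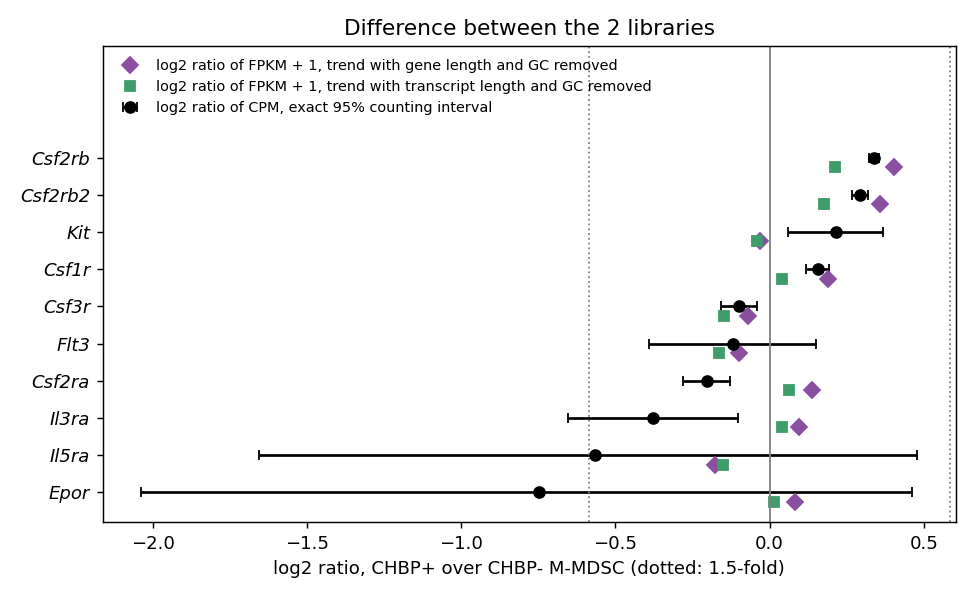
Log2 ratio of CHBP+ over CHBP- for each receptor gene, as CPM with its exact 95% counting interval (black) and as FPKM + 1 after the trend with gene length and GC content (diamonds) or with transcript length and GC content (squares) was removed. All 10 black points lie between the dotted 1.5-fold lines except Epor at -0.75, and Csf2ra, Il3ra, Kit and Epor change sign between the black points and the corrected ones. These points also differ in scale. By CPM with the gene length trend removed, Epor at -0.44 and Kit at 0.02 keep their sign, and Csf2ra and Il3ra do not. That trend was fitted to FPKM + 1, so these CPM values mix scales.

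Csf2rb (ENSMUSG00000071713, chr15:78325990-78351000 on GRCm38), the common β chain, had 56127 reads in CHBP- and 70028 reads in CHBP+ M-MDSCs. Its level was 714.7 FPKM (708.8 to 720.6) and 902.9 FPKM (896.2 to 909.6), which ranked 59 and 34 among all genes. It was 1.26-fold (1.25 to 1.28) higher in CHBP+ M-MDSCs, a log2 ratio of 0.34, and stayed higher at 0.40 and 0.21 after either length trend was removed.

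Csf2rb2 (ENSMUSG00000071714, chr15:78282517-78305603), the β chain of the IL-3 receptor, differed in the same direction. It had 20108 and 24341 reads, or 264.5 FPKM (260.8 to 268.2) and 324.2 FPKM (320.1 to 328.3), ranks 149 and 106. It was 1.23-fold (1.20 to 1.25) higher in CHBP+ M-MDSCs, with log2 ratios of 0.29 as deposited and 0.36 and 0.17 after removal of the length trends. Of the reads on both β chains, Csf2rb held 73.6% (73.3 to 73.9) of 76235 in CHBP- and 74.2% (73.9 to 74.5) of 94369 in CHBP+ M-MDSCs. Both genes were therefore higher by nearly the same factor. Reads that fit both copies, such as those in the shared run printed above, cannot be assigned by sequence, and their part in the like ratios was not tested.

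Csf2ra (ENSMUSG00000059326, chr19:61224402-61228418), the GM-CSF-binding α chain, lay on the other side of equality. It had 3067 reads and 100.6 FPKM (97.1 to 104.2) in CHBP-, and 2630 reads and 87.4 FPKM (84.1 to 90.8) in CHBP+ M-MDSCs. It was 0.868-fold (0.824 to 0.915) the CHBP- level, a log2 ratio of -0.20, and turned to 0.14 and 0.06 after the length trends were removed. The direction of Csf2ra thus depended on whether the length trend, to which its short gene length of 1849 bases assigns -0.34, was left in.

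Il3ra (ENSMUSG00000068758, chr14:14346495-14355490), the IL-3-binding α chain, had 255 reads and 11.1 FPKM (9.78 to 12.5) in CHBP-, and 194 reads and 8.55 FPKM (7.39 to 9.84) in CHBP+ M-MDSCs. Its CPM ratio was 0.770 (0.636 to 0.932), and its log2 ratio of -0.34 likewise turned to 0.10 and 0.04 once a length trend was removed. Il5ra (ENSMUSG00000005364, chr6:106710357-106749037), the IL-5-binding α chain of eosinophils and their precursors, had 21 reads and 0.211 FPKM (0.131 to 0.323) in CHBP-, and 14 reads and 0.143 FPKM (0.078 to 0.239) in CHBP+ M-MDSCs. Its CPM ratio of 0.675 had an interval of 0.317 to 1.39, so no difference was detectable at this depth.

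Epor (ENSMUSG00000006235, chr9:21958899-21963576), the EPO receptor, was represented by 17 reads in CHBP- and 10 reads in CHBP+ M-MDSCs. This equals 0.564 FPKM (0.328 to 0.903) and 0.336 FPKM (0.161 to 0.618), ranks 11628 and 12524 among all genes. The CPM ratio was 0.596 with an interval from 0.244 to 1.38, so neither a difference nor its absence could be shown at this depth. The log2 ratio of FPKM + 1 was -0.23 and turned to 0.08 and 0.02 after the trends with gene and transcript length were removed. By CPM, a scale on which the pseudocount does not shrink low genes, the log2 ratio of -0.75 became -0.44 after the gene length trend was removed. That trend was fitted to FPKM + 1 and not to CPM, so the value of -0.44 mixes scales. Epor mRNA was thus above 0 in both sorted populations but under 1 FPKM, and protein was not measured in these libraries. In bulk RNA, few cells with much of a transcript and many cells with little of it cannot be told apart, nor can fewer cells of a type and less RNA per cell.

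Markers of erythroid cells, in which Epor is best known, were mostly lower in CHBP+ M-MDSCs. Of 11 erythroid marker genes, 9 had at least 1 FPKM. All 9 had log2 ratios below 0, 7 of them beyond counting error and 3 by at least 1.5-fold, and with the gene length trend removed 7 lay below and 2 above 0. Over all genes kept, 31.0% lay below equality beyond counting error, 2.89% were at least 1.5-fold lower and the median log2 ratio was -0.03. That median is also the reference for the splits above and below 0 of the later lists. The summed level of the list was 1312 FPKM in CHBP- and 607 FPKM in CHBP+. The β-globin gene Hbb-bs led them with 20238 and 5989 reads, while Gata1, the erythroid transcription factor, had 140 and 87 reads and Klf1, an erythroid activator of globin genes, 13 and 7. The part of erythroid cells in the Epor reads was not tested.

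Set against each other within a library, the chains differed widely in level. Csf2rb stood 1268-fold (792 to 2176) above Epor per gene length in CHBP- and 2689-fold (1462 to 5607) above it in CHBP+ M-MDSCs. The change in this ratio was 2.12-fold (0.917 to 5.18), an interval that includes 1, its width set by the few Epor reads. Csf2rb stood 7.10-fold (6.85 to 7.37) above Csf2ra in CHBP- and 10.3-fold (9.94 to 10.7) above it in CHBP+ M-MDSCs. That ratio was 1.45-fold (1.38 to 1.54) wider in CHBP+ M-MDSCs, or 0.54 on the log2 scale of FPKM + 1, of which 0.27 and 0.15 were left after the trends with gene and transcript length were removed.

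In the IL-3 receptor Csf2rb2 stood 23.8-fold (21.1 to 27.1) above Il3ra in CHBP- and 37.9-fold (32.9 to 43.9) in CHBP+ M-MDSCs. The change was 1.59-fold (1.31 to 1.93). On the log2 scale of FPKM + 1 it was 0.63, which became 0.26 and 0.14 after the length trends were removed. Within a pair of the same kind the ratios moved less. Csf2rb to Csf2rb2 was 2.70 and 2.79, a change of 1.03-fold (1.01 to 1.05). Csf2ra to Il3ra was 9.07 and 10.2, a change of 1.13-fold (0.925 to 1.38) whose interval includes 1.

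**Figure D3:**
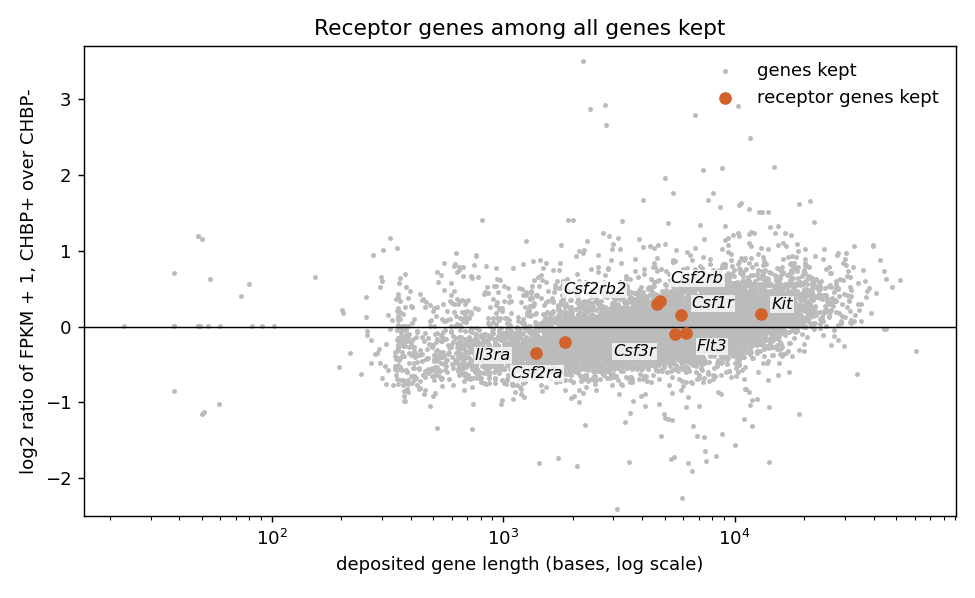
Log2 ratio of FPKM + 1 (CHBP+ over CHBP-) against deposited gene length in bases (log axis) for the 10948 genes kept (grey), with the 8 receptor genes kept in orange. The short α chain genes Csf2ra and Il3ra lie below 0 amid other genes of their length, and Csf2rb and Csf2rb2 lie above 0 at lengths of 4764 and 4612 bases.

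Csf1r (ENSMUSG00000024621), the M-CSF receptor of monocytes and macrophages, was the third most abundant of the 10. It had 10908 reads and 112.9 FPKM (110.8 to 115.0) in CHBP-, and 12000 reads and 125.7 FPKM (123.5 to 128.0) in CHBP+ M-MDSCs. It was 1.11-fold (1.09 to 1.14) higher, a log2 ratio of 0.15, with 0.19 and 0.04 left after removal of the length trends. Csf3r (ENSMUSG00000028859, chr4:126024550-126044440), the G-CSF receptor, had 4878 reads and 53.6 FPKM (52.1 to 55.1) in CHBP-, and 4499 reads and 50.1 FPKM (48.6 to 51.6) in CHBP+ M-MDSCs. Its CPM ratio was 0.934 (0.897 to 0.973), and the log2 ratio of -0.10 kept its sign at -0.07 and -0.15.

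The ratio of Csf1r to Csf3r, receptors of the monocyte and neutrophil lineages, was 2.105 in CHBP- and 2.511 in CHBP+ M-MDSCs, a change of 1.19-fold (1.14 to 1.25). On the log2 scale of FPKM + 1 this change was 0.25, and 0.26 and 0.19 after the length trends were removed. Csf1r and Csf3r have similar deposited lengths of 5863 and 5519 bases. The gene length trend therefore nearly cancels in their ratio, and its stability under that correction says little. Of the monocyte and macrophage markers, 12 entries for genes kept split into 7 above and 5 below 0, with a summed level of 10748 FPKM in CHBP- and 8929 FPKM in CHBP+, most of it Lyz2, lysozyme, at 9756 and 7830 FPKM. Itgam, which encodes the CD11b of the sort, had 18653 and 27265 reads in the first of its 2 overlapping entries. Ly6c2, which encodes a Ly6C antigen of the sort, had 4091 and 2411 reads, or 56.9 and 34.0 FPKM.

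Of 11 neutrophil markers, all kept, 3 were above and 8 below 0, and with the gene length trend removed 7 were above and 4 below 0. Their summed level was 3330 and 3026 FPKM, led by the collagenase gene Mmp8 at 1290 and 1546 FPKM. Ly6g, the antigen that the sort selected against, still had 46 and 44 reads. The part of monocyte and neutrophil markers in the levels of Csf1r and Csf3r was not tested.

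Kit (ENSMUSG00000005672, chr5:75574916-75656722), the stem cell factor receptor, had 646 reads and 3.02 FPKM (2.80 to 3.27) in CHBP-, and 740 reads and 3.51 FPKM (3.26 to 3.77) in CHBP+ M-MDSCs. It was 1.16-fold (1.04 to 1.29) higher by CPM, and its log2 ratio of 0.16 turned to -0.03 and -0.04 after the length trends were removed. Its log2 CPM ratio of 0.21 became 0.02 with the gene length trend removed, although that trend was fitted to FPKM + 1. Flt3 (ENSMUSG00000042817, chr5:147330741-147400489), the FLT3 ligand receptor, had 241 reads and 2.37 FPKM (2.08 to 2.69) in CHBP-, and 219 reads and 2.18 FPKM (1.90 to 2.49) in CHBP+ M-MDSCs. The CPM ratio of Flt3 was 0.920 (0.763 to 1.11), an interval that includes 1. The ratio of Kit to Flt3 was 1.28 and 1.61, a change of 1.26-fold (1.01 to 1.57). On the log2 scale of FPKM + 1 this change was 0.25, and 0.07 and 0.12 after the length trends were removed.

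Markers of other cell types known to carry KIT, FLT3 or the IL-5 receptor had reads in both libraries. Of 11 mast cell markers 5 were kept, 1 higher and 4 lower in CHBP+ M-MDSCs, with a summed level of 208 and 196 FPKM, Cpa3, a mast cell carboxypeptidase, in the lead at 141 and 130 FPKM, and Mrgprb1 and Mrgprb2 at 0 reads in both. The protease genes of the list were below 1 FPKM: Cma1 had 3 and 2 reads, Mcpt4 0 and 1, Tpsab1 1 and 0, and Tpsb2 16 and 15. Ms4a2, the β chain of the high-affinity IgE receptor, had 182 and 446 reads, a log2 ratio of 1.04. Basophil markers summed to 151 and 110 FPKM with 5 of 6 kept, 1 higher and 4 lower, led by the basophil protease gene Prss34 at 83.4 and 57.2 FPKM. Eosinophil markers summed to 144 and 108 FPKM with 6 of 7 kept, all 6 lower in CHBP+ M-MDSCs, led by Prg2, a granule protein gene, at 107.2 and 77.8 FPKM.

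Stem and progenitor markers summed to 125 and 102 FPKM with 8 of 10 kept, 2 higher and 6 lower, led by Cebpe, a transcription factor of granulocyte precursors, at 53.85 and 36.02 FPKM. Dendritic cell markers summed to 801 and 681 FPKM with 7 of 10 kept, 3 higher and 4 lower, with Cd74, the invariant chain gene, in the lead at 567.3 and 437.8 FPKM and Xcr1 at 0 reads in both. B cell markers summed to 41.7 and 28.4 FPKM, led by Cd79a, and T cell markers to 7.41 and 5.55 FPKM, led by Tcf7. Markers of group 2 innate lymphoid cells summed to 45.3 and 55.1 FPKM, most of it Il7r, the IL-7 receptor α chain, at 43.1 and 51.9 FPKM. The paper reports this chain, CD127, on M-MDSCs by flow cytometry, so the sum is not specific to innate lymphoid cells. Of the other markers, Gata3 had 14 and 19 reads, Klrg1 4 and 3, Rora 91 and 225, and Areg 0 in both. These were below 1 FPKM, and Il1rl1 stood at 1.51 and 1.89 FPKM. With the gene length trend removed, 3 mast cell, 4 dendritic cell and 2 eosinophil markers lay above 0, and 2, 3 and 4 below it. Basophil markers then stood at 1 above and 4 below 0, and stem and progenitor markers at 2 above and 5 below. Gfi1, a stem and progenitor marker, had no value with the trend removed. The part of these cells in the Kit, Flt3 and Il5ra reads was not tested.

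Ligand genes of these receptors mostly had few or no reads. Of 9 ligand genes, Epo, Il3, Il5 and Il34 had 0 reads in both libraries, Csf2, which encodes the GM-CSF added to the cultures, had 1 and 2 reads, Csf3 had 6 and 3, and Kitl, the KIT ligand, 25 and 28. The 2 ligands kept were Csf1, which encodes M-CSF, and Flt3l. Csf1 had 5707 and 6250 reads, or 43.5 and 48.3 FPKM, a log2 ratio of 0.15, beside 0.15 for its receptor Csf1r. Flt3l had 158 and 133 reads, or 8.92 and 7.60 FPKM, and a CPM interval that includes equality.

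Most signalling genes behind the receptors differed by less than 1.5-fold, as did most genes of any kind. Over all 10948 genes kept, 3.42% were at least 1.5-fold higher and 2.89% at least 1.5-fold lower. These shares are the reference for the 1.5-fold counts of the lists that follow, which single out nothing about signalling genes. Of the 15 kinases, adaptors and STATs reported, all kept, 12 were above and 3 below 0, with a median log2 ratio of 0.18 that was 0.03 once the gene length trend was removed. Jak2, the kinase carried by the β chain and EPOR, had the highest FPKM of the list, with 6971 and 8059 reads and 84.1 and 98.4 FPKM, a log2 ratio of 0.22. The highest log2 ratios reported were those of Sos1, a Ras activator, at 0.49 and the kinase gene Jak1 at 0.36, and the lowest those of the 14-3-3 gene Ywhaz at -0.23 and the adaptor gene Grb2 at -0.10.

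Of 11 inhibitors of receptor signalling, all kept, 3 were above and 8 below 0, with a median of -0.14 that became 0.01 without the length trend. Cbl, a ubiquitin ligase that sends activated receptors to degradation, was the exception past 1.5-fold, with 3439 and 6190 reads, or 11.8 and 21.6 FPKM, and a log2 ratio of 0.81, or 0.56 with the gene length trend removed. Next was the phosphatase gene Inpp5d at 0.16, and the lowest were Socs1 at -0.37 and Dok2 at -0.28. Ptpn6, the SHP-1 phosphatase, had the highest FPKM of this list at 69.6 and 61.3. Cish, a STAT5-induced inhibitor, stood at 19.2 and 17.7 FPKM.

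Of 14 targets of GM-CSF and EPO receptor signalling, all kept, 3 were above and 11 below 0, with a median of -0.18 that became 0.02 without the length trend. Bcl2l1, the survival gene for BCL-XL, was the 1 gene at least 1.5-fold lower on the scale of FPKM + 1, with 893 reads and 4.55 FPKM in CHBP- and 358 reads and 1.85 FPKM in CHBP+ M-MDSCs. Its log2 ratio was -0.96, and -1.05 with the gene length trend removed. Gfi1b, a repressor of erythroid and megakaryocyte precursors, was next lowest at -0.54, with 116 and 63 reads. Its CPM ratio of 0.550 (0.398 to 0.754) is past 1.5-fold, which the pseudocount hides at its low level. Ccnd2, cyclin D2, and Irf4 had the highest log2 ratios at 0.39 and 0.38. Pim1, a kinase gene induced by STAT5, and Mcl1, a survival gene, had the highest FPKM of the list, Pim1 at 235.6 and 211.8 and Mcl1 at 220.8 and 212.1.

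Of 12 other class I cytokine receptor chains, 6 were kept, 5 above and 1 below 0, and 0 passed 1.5-fold on the scale of FPKM + 1. Il6st, the shared gp130 chain of the IL-6 family, was highest at 0.57 with 1106 and 1762 reads, and its CPM ratio of 1.613 (1.495 to 1.741) is past 1.5-fold. Il12rb2 followed at 0.28, and the lowest were Il11ra1 at -0.30 and Il12rb1 at 0.01. The list's median was 0.23, against -0.03 over all genes kept.

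**Figure D4:**
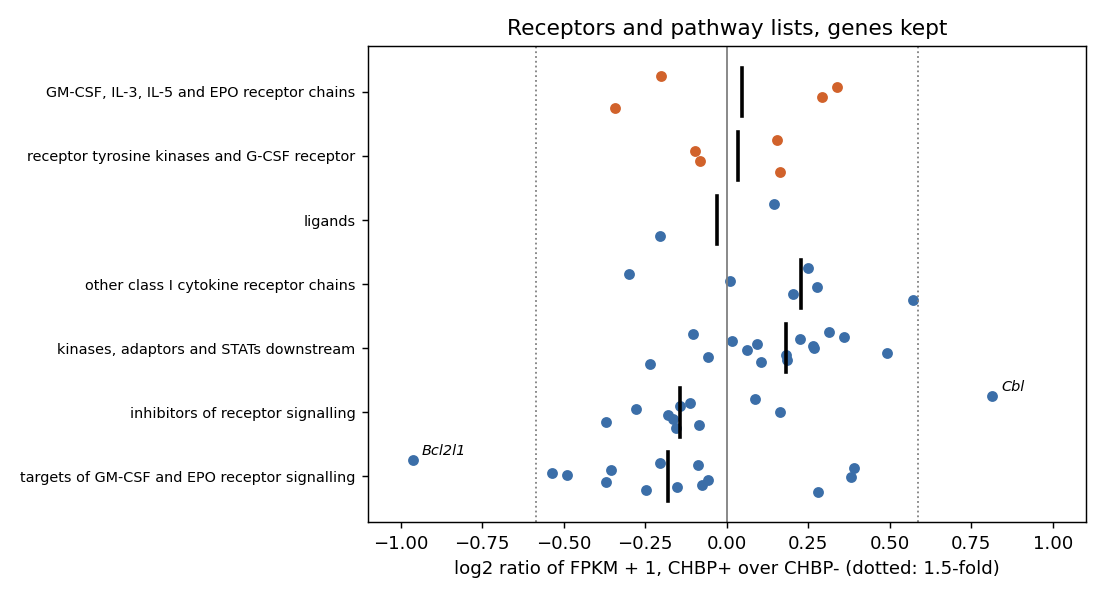
Log2 ratio of FPKM + 1 (CHBP+ over CHBP-) of each gene reported in the receptor lists (orange) and in the ligand and signalling lists (blue), with black bars at each list's median and dotted lines at 1.5-fold. Cbl at 0.81 and Bcl2l1 at -0.96 lie past the dotted lines, and no receptor gene that reached 1 FPKM does.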

How the data were processed

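RNA was measured in 2 libraries, 1 per condition, grouped by the treatment in the labels. The authors deposited read counts per gene and FPKM values, with single-end reads of 75 bases per the methods. The submitters' processing notes name HISAT2 2.0.4, Cufflinks 2.1.1, Cuffdiff and GRCm38 (mm10), while the methods name TopHat2, HT-seq and mm9. The coordinates of all 10 receptor genes overlap their RefSeq genes on GRCm38. Each deposited FPKM value equals the count divided by gene length and library total: gene lengths implied by the libraries had ratios between 0.999963 and 1.00004 over 11873 genes. Depth was 16484504 and 16280466 counted reads.

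Log2 ratios used a pseudocount of 1 on FPKM, and genes were kept if they reached 1 FPKM in one or both libraries. Counting intervals were exact. Without replicates no p-value was computed, and the DESeq test of the methods was not repeated. The length trend was a polynomial of degree 3 in log2 gene length and degree 2 in GC content. It was fitted to log2 ratios of FPKM + 1 over the 10211 genes kept (93.3%) that had a GENCODE M1 transcript. GC content was taken from that transcript, and the trend was applied to all 10 receptors. No trend was fitted to CPM ratios, and the one taken from them was that of FPKM + 1. Because the deposited gene length can exceed that of any transcript, the trend was also fitted on the length of the longest transcript of the same genes, an alternative chosen after seeing the data. Other alternatives were another pseudocount, filter, fold, scaling (edgeR 4.0.16 in R 4.3.3, TMM factors) and centring, and leaving out overlapping genes. Scripts ran in Python 3.11.15 with numpy 2.4.6, pandas 2.3.3, scipy 1.17.1, Biopython 1.88 and matplotlib 3.10.9 and were tested on simulated data.

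Named were all 10 receptors and all ligands, in each signalling list the 2 highest and 2 lowest log2 ratios among genes kept and the highest FPKM, and in each marker list the highest FPKM and defining markers at 0. Hbb-bs, Gata1, Klf1, Itgam, Ly6c2, Ly6g, Ms4a2, Cma1, Mcpt4, Tpsab1, Tpsb2, Cish, Gata3, Klrg1, Rora, Il1rl1 and Gfi1 were added after their values were seen. Likeness of pattern between genes was not computed, since 2 libraries give 1 ratio per gene. From the list of kinases, adaptors and STATs, 2 genes are not reported here, and its counts, median and plot leave them out. Receptors and lists were chosen with earlier results of these data known. Sequences came from GENCODE M1 transcripts and RefSeq upstream stretches (GRCm38).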

Additional observations from a re-analysis of the deposited data

How the results depend on the processing

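No paired analysis was possible because each condition had 1 library, and for the same reason no replicate could be left out. The counts of receptor genes past 1.5-fold stayed at 0 in either direction under every alternative run, over the 6 to 10 receptor genes each one kept. Epor was past 1.5-fold outside those counts, at a log2 ratio of -0.61 with a pseudocount of 0.1. There the filter of 1 FPKM left it out, and the run without a filter used a pseudocount of 1. By CPM without a pseudocount its ratio of 0.596 was also past 1.5-fold, with an interval from 0.244 to 1.38. The 374 genes higher by 1.5-fold became 665 with a pseudocount of 0.1, 609 on the scale of CPM + 1, 231 and 189 with the trend with gene or transcript length removed (from 307 without removal over the same 10211 genes), 218 with at least 5 FPKM, 85 at 2-fold and 232 without overlapping genes. The 316 genes lower became 571 with a pseudocount of 0.1, 134 and 100 with the gene or transcript length trend removed (from 253 over the same 10211 genes), 209 with at least 5 FPKM and 46 at 2-fold. The share of higher among these genes was 54.2%, and 63.3% and 65.4% with the gene or transcript length trend removed and 64.9% at 2-fold. After removal of the gene or transcript length trend, log2 ratios of FPKM + 1 reversed to 0.14 and 0.063 for Csf2ra, 0.097 and 0.039 for Il3ra, -0.032 and -0.042 for Kit, and 0.082 and 0.016 for Epor. By CPM with the gene length trend removed, Csf2ra and Il3ra reversed as well, but Kit at 0.02 and Epor at -0.44 did not. That trend was fitted to FPKM + 1 and none was fitted to CPM, so these values mix scales. Csf2rb moved from 0.34 to 0.36 with the median of all genes set to 0 and to 0.40 and 0.21 with those trends removed, and Epor from -0.23 to -0.61 with a pseudocount of 0.1. Both the transcript length alternative and the restriction to 10211 genes were added once results had been seen, that is, chosen after seeing the data. The cause of the length trend was not tested. Of all receptor log2 ratios under alternatives, 43 values kept their sign within the counting interval, 11 left it with the same sign and 8 reversed sign. The reversed values of Epor, 0.082 and 0.016, lay within its counting interval of -0.55 to 0.14. The depth of 17 and 10 reads limits every statement about Epor.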
